A study of Mus musculus with 8 samples.

Results

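Granzymes are the serine proteases that natural killer (NK) cells and cytotoxic T cells carry in secretory granules. The mouse family was followed here through 9 genes, Gzma, Gzmb, Gzmc, Gzmd, Gzme, Gzmf, Gzmg, Gzmk and Gzmm, taken by symbol from the deposited matrix of raw read counts. All 9 were found among its 27179 genes, and all 9 were among the 13184 genes tested after a filter on low counts. The filter was met by Gzmd, Gzme, Gzmf and Gzmg through the cultured libraries alone.

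RNA had been sequenced from NK cells of C57BL/6 mice in 8 libraries, 2 in each of 4 groups: CIS-/- in vitro, wild type in vitro, CIS-/- ex vivo and wild type ex vivo. The cells came from spleen, bone marrow and blood and had been enriched with microbeads against CD49b, the DX5 antigen. CIS is the protein of Cish, an intracellular inhibitor of cytokine receptor signalling, and the series sets NK cells without it beside wild type cells. The labels give neither the culture medium and its duration nor the age or number of mice, and they do not say whether the 2 libraries of a group came from separate mice or cultures. All p-values therefore measure the spread between these libraries only, which may be technical.

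After a killer cell meets its target, perforin opens the way for granzymes into the target cell, where they cut proteins and start its death. Granzyme B cuts after aspartate and activates caspases, whereas granzymes A and K are tryptases that cut after arginine and lysine, and granzyme M prefers methionine and leucine. Gzmc to Gzmg are rodent genes next to Gzmb, and transcripts of this block are known from activated cytotoxic lymphocytes and from uterine NK cells of pregnant mice. Resting mouse NK cells are known to hold much Gzmb mRNA with little protein, until cytokines act on them.

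The genes lie at 3 places in the mouse genome (GRCm38.p6). Gzme, Gzmd, Gzmg, Gzmf, Gzmc and Gzmb follow each other, all on the minus strand, from base 56117619 to base 56262334 of chromosome 14. Gzma spans bases 113093824 to 113100981 and Gzmk bases 113171630 to 113180965 of chromosome 13, also on the minus strand. Gzmm stands alone on the plus strand of chromosome 10, from base 79689020 to base 79695261.

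Library totals ran from 21.5 to 28.1 M (1e6) counts. Cish reads checked the genotype labels: Cish had 21.2 and 17.2 CPM (counts per 1e6 reads, normalised) in CIS-/- in vitro cells, against 220 and 202 CPM in wild type in vitro cells, and 1.29 and 2.64 CPM in CIS-/- ex vivo libraries against 9.26 and 9.12 CPM in wild type ex vivo libraries. Xist, the RNA of the inactive X chromosome of female cells, had 131 and 89.7 CPM in CIS-/- in vitro libraries but 0 and 0.0351 CPM in wild type in vitro libraries. Ex vivo the order was the other way round, with 0.322 and 0.197 CPM in CIS-/- libraries and 120 and 162 CPM in wild type libraries. Sex of the cells and genotype thus cannot be told apart in either genotype comparison, nor sex and culture in either genotype. None of 9 NK cell markers was at 0 in any group, and the activating receptor gene Ncr1 had between 476 and 1884 CPM.

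The plot of normalised counts shows 3 patterns among the granzymes. Gzma was abundant in every library. The chromosome 14 genes, Gzmb included, were far higher in cultured cells. Gzmk and Gzmm were low throughout and lower in cultured cells.

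**Figure D1:**
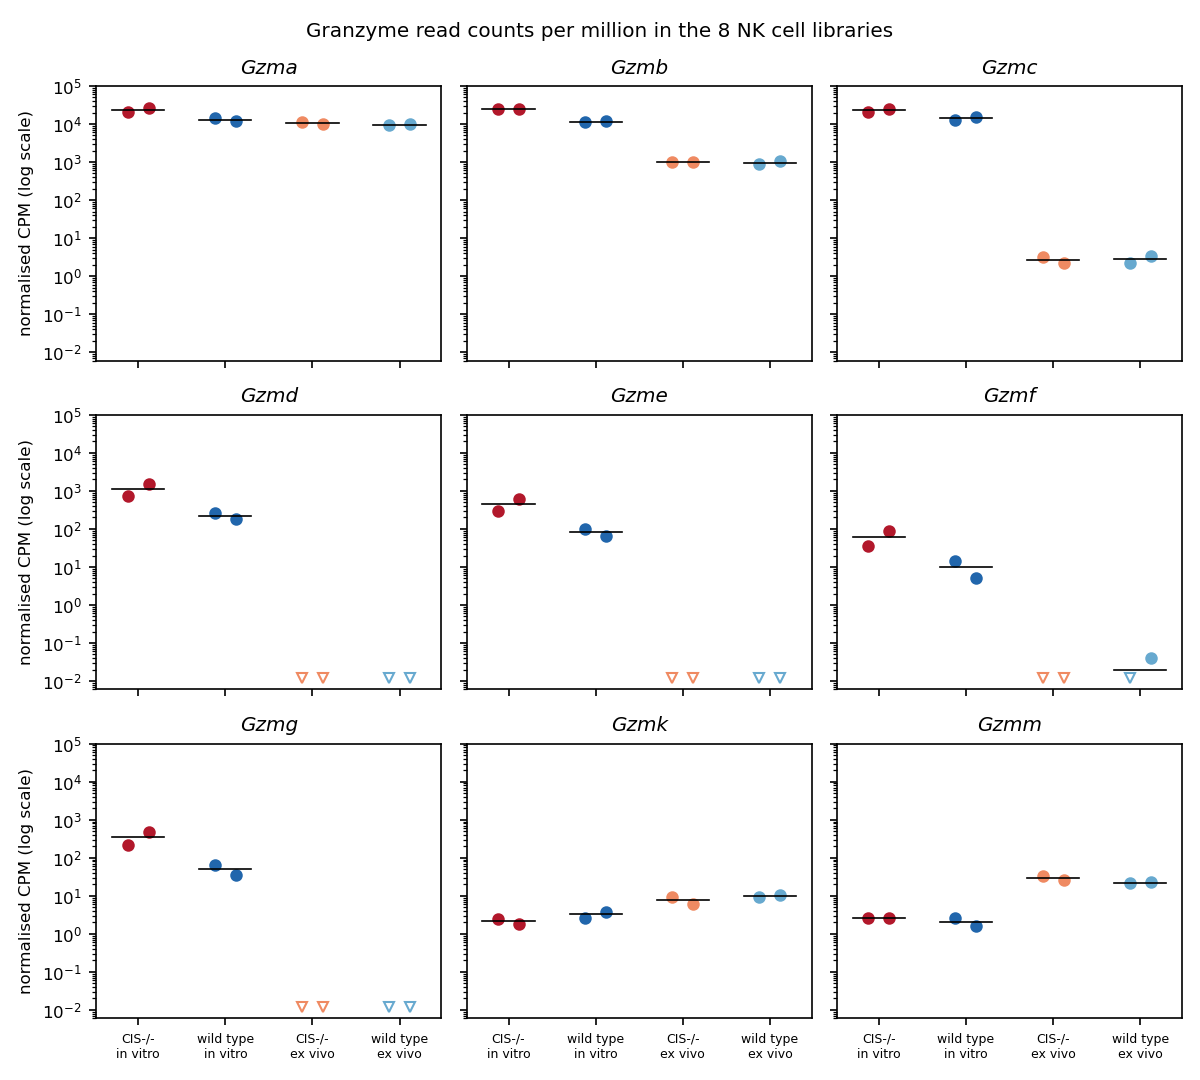
Normalised read counts (CPM, log axis) of the 9 granzymes, with 1 filled point per library, a black line at each group's mean (n = 2) and open triangles at the foot of the axis for libraries with 0 counts. Gzmd, Gzme and Gzmg have 0 counts in all 4 ex vivo libraries, while Gzma lies between 9596 and 25875 CPM in all 8.

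In cultured cells the family took a larger share of all RNA reads, and Gzma, which made up most of the granzyme level in fresh cells, was joined by Gzmb and Gzmc. Granzyme reads made up 6.28% and 7.24% of all counts in CIS-/- in vitro libraries and 3.95% and 3.99% in wild type in vitro libraries. They made up 1.26% and 1.13% in CIS-/- ex vivo libraries and 1.08% and 1.12% in wild type ex vivo libraries. With 2 libraries against 2, an exact two-sided permutation test of such a share cannot go below p = 0.333, so no p is given for it. Levels of different genes are compared below per gene length, as RPKM (reads per kilobase and 1e6 reads) computed from the counts. Gzma made up 37.3% ± 1.37 of the summed granzyme RPKM in CIS-/- in vitro cells, 38.3% ± 4.96 in wild type in vitro cells, 94.3% ± 0.541 in CIS-/- ex vivo cells and 94.0% ± 0.583 in wild type ex vivo cells (SD, n = 2 each). Gzmb made up 24.8% ± 2.73 in CIS-/- in vitro cells, 21.4% ± 1.12 in wild type in vitro cells, 5.44% ± 0.577 in CIS-/- ex vivo cells and 5.73% ± 0.572 in wild type ex vivo cells.

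**Figure D2:**
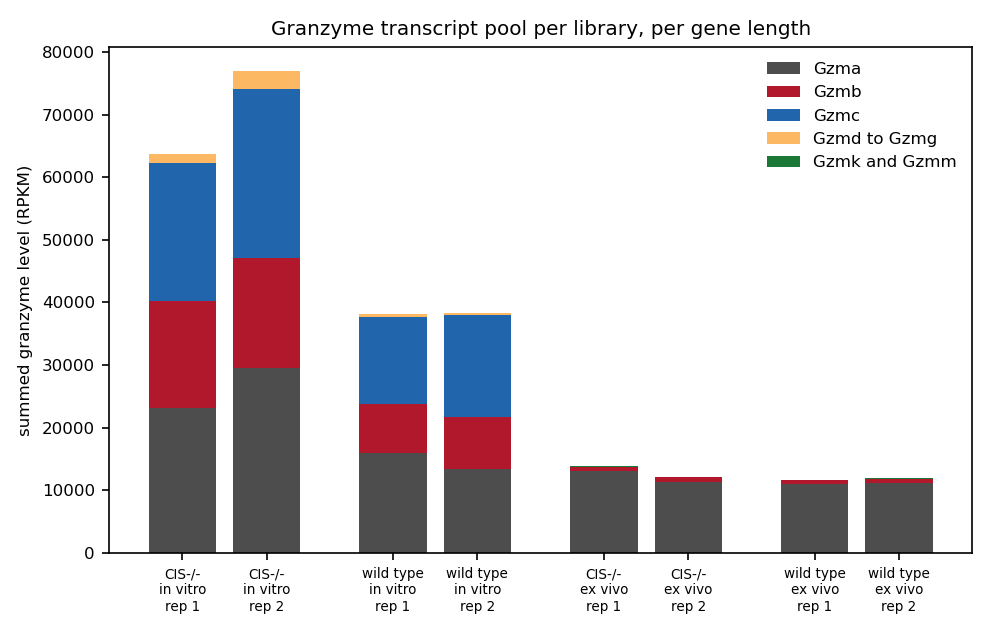
Summed granzyme level of each library in RPKM, computed from the raw counts and divided by gene length, with each bar split by gene. Gzma fills nearly the whole bar in ex vivo libraries, and Gzma, Gzmb and Gzmc together make up 96.2% to 99.2% of the bar in the 4 in vitro libraries.

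The order of levels per length was the same in both ex vivo groups down to the fifth gene. Gzma had 12225 ± 1192 RPKM in CIS-/- ex vivo cells and 11025 ± 136 RPKM in wild type ex vivo cells, and Gzmb had 702 ± 9.95 and 673 ± 79.5 RPKM in the same groups (SD, n = 2 each). Gzmm, Gzmk and Gzmc followed, with 23.2, 9.62 and 2.83 RPKM in CIS-/- ex vivo cells and 17.4, 12.4 and 2.97 RPKM in wild type ex vivo cells. No neighbours among these 5 overlapped between libraries of a group.

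In vitro, Gzma and Gzmc led without a clear order between them. Gzma had 26311 ± 4469 RPKM in CIS-/- in vitro cells and 14621 ± 1867 RPKM in wild type in vitro cells, and Gzmc had 24558 ± 3407 and 15020 ± 1616 RPKM in the same groups (SD, n = 2 each). The libraries of Gzma and Gzmc overlapped in both groups. Gzmb came next, with 17322 ± 413 RPKM in CIS-/- in vitro cells and 8156 ± 441 RPKM in wild type in vitro cells. By read count these were the 3 most abundant of all genes in every in vitro library. Gzmd, Gzme, Gzmg and Gzmf followed in that order in both groups, and Gzmk and Gzmm came last. Only Gzme and Gzmg overlapped among these, and only in CIS-/- in vitro cells, where Gzme had 312 and 647 RPKM and Gzmg 234 and 527 RPKM.

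Culture was associated with 7 granzymes higher and 2 lower in each genotype, by edgeR's quasi-likelihood test with Benjamini-Hochberg adjustment over all 13184 genes. In CIS-/- cells 72.4% of all tested genes passed this test and in wild type cells 63.7% did, so passing it was common. Called higher were 34.8% of all tested genes in CIS-/- cells and 32.1% in wild type cells, and called lower were 37.5% in CIS-/- cells and 31.6% in wild type cells. Gzmd, Gzme, Gzmf and Gzmg passed the low-count filter through the cultured libraries alone, so they had to be higher there, and the count of 7 is a description. In bulk RNA, fewer cells of a type and less RNA per cell cannot be told apart, and this holds for every comparison here. Marker lists of several cell types moved with culture too. Of 13 T cell markers, 7 were called higher and 3 lower in cultured CIS-/- cells, and 4 higher and 6 lower in cultured wild type cells. They summed to 1621 and 1664 CPM in CIS-/- in vitro cells and 736 and 577 CPM in CIS-/- ex vivo cells, and to 766 and 639 CPM in wild type in vitro cells and 629 and 686 CPM in wild type ex vivo cells. Of 9 NK cell markers, 2 were called higher and 5 lower in culture in each genotype. They summed to 5855 and 6767 CPM in CIS-/- in vitro cells and 12467 and 10605.5 CPM in CIS-/- ex vivo cells, and to 6612 and 5987 CPM in wild type in vitro cells and 10362 and 10471 CPM in wild type ex vivo cells. Among other blood cells, 9 of 9 tested B cell markers, 6 of 7 myeloid markers and 8 of 8 erythroid and platelet markers were called lower in cultured cells of both genotypes. Of 8 tested basophil and mast cell markers, 3 were called higher and 5 lower in CIS-/- culture, and 3 higher and 3 lower in wild type culture. That list of 10 summed to 473 and 436 CPM in CIS-/- in vitro libraries and 158 and 110 CPM in CIS-/- ex vivo libraries. In wild type libraries it summed to 776 and 992 CPM in vitro and 93.6 and 90.9 CPM ex vivo. The summed B cell markers had 0.771 and 0.761 CPM in CIS-/- in vitro libraries, 0.348 and 0.351 CPM in wild type in vitro libraries, 94.8 and 16.4 CPM in CIS-/- ex vivo libraries and 33.6 and 29.0 CPM in wild type ex vivo libraries, and the part of T cells and other cells in the culture results was not tested.

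Gzmc was among the leading genes of the cultured cells and the lowest of the members detected in every ex vivo library. Gzmc had 20687 and 25187 CPM in CIS-/- in vitro libraries and 12961 and 15096 CPM in wild type in vitro libraries. In the ex vivo libraries it had 3.09 and 2.20 CPM in CIS-/- cells and 2.19 and 3.35 CPM in wild type cells. The log2 difference, in vitro minus ex vivo, was 13.09 (SE 0.299, edgeR adjusted p = 3.6e-08) in CIS-/- cells and 12.30 (SE 0.292, adjusted p = 5.3e-08) in wild type cells.

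Gzmb had 24149 and 24977 CPM in CIS-/- in vitro libraries and 11123 and 12008 CPM in wild type in vitro libraries. Ex vivo it had 986 and 1006 CPM in CIS-/- libraries and 875 and 1034 CPM in wild type libraries. Its log2 difference, in vitro minus ex vivo, was 4.62 (SE 0.132, edgeR adjusted p = 1.1e-07) in CIS-/- cells and 3.60 (SE 0.126, adjusted p = 3.1e-07) in wild type cells. Unlike the rest of the chromosome 14 block, Gzmb was thus already the second granzyme of fresh cells.

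Gzmd, Gzme and Gzmg had no read at all in the 4 ex vivo libraries, and Gzmf had 1 read in 1 wild type library. Taking 3 counts over a group as the floor, Gzmd was at least 17622-fold higher in CIS-/- in vitro than in CIS-/- ex vivo cells, and at least 3632-fold higher in wild type in vitro than in wild type ex vivo cells. The same bounds were at least 6906-fold and 1351-fold higher for Gzme, and at least 5404-fold and 812-fold higher for Gzmg. Gzmf was at least 960-fold higher in CIS-/- in vitro than in CIS-/- ex vivo cells. In wild type cells its ratio was 482, with a 95% counting interval from 86.2 to 19076. Floors and intervals cover counting error only.

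Gzma, the main granzyme of fresh cells, differed less. Gzma had 20326.5 and 25875 CPM in CIS-/- in vitro libraries, 13997 and 11678 CPM in wild type in vitro libraries, 11474 and 9993 CPM in CIS-/- ex vivo libraries and 9596 and 9765 CPM in wild type ex vivo libraries. Every in vitro library lay above every ex vivo library, as held within a genotype for 41.4% of all tested genes in CIS-/- cells and 43.5% in wild type cells. The log2 difference, in vitro minus ex vivo, was 1.11 (SE 0.151, edgeR adjusted p = 0.00021) in CIS-/- cells and 0.41 (SE 0.150, adjusted p = 0.041) in wild type cells. The wild type call held in 13 of 24 settings, the reported one included. Leaving out ex vivo replicate 1 of the wild type ended it (log2 difference 0.40, edgeR adjusted p = 0.14), as did leaving out ex vivo replicate 2 (0.42, adjusted p = 0.13) or in vitro replicate 1 (0.24, adjusted p = 0.29). With the trend of log ratios on gene length removed, the wild type difference was -0.14 (adjusted p = 0.29).

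Gzmk and Gzmm fell in culture. Gzmm had 2.54 and 2.56 CPM in CIS-/- in vitro libraries against 33.7 and 26.0 CPM in CIS-/- ex vivo libraries, a log2 difference of -3.54 (SE 0.214, edgeR adjusted p = 2.7e-06). It had 2.54 and 1.62 CPM in cultured wild type libraries against 22.2 and 22.5 CPM in wild type ex vivo libraries, a log2 difference of -3.43 (SE 0.216, adjusted p = 4.6e-06). Gzmk had 2.51 and 1.76 CPM in CIS-/- in vitro libraries against 9.26 and 5.98 CPM in CIS-/- ex vivo libraries, a log2 difference of -1.83 (SE 0.288, adjusted p = 0.00049). It had 2.68 and 3.79 CPM in cultured wild type libraries against 9.34 and 10.3 CPM in wild type ex vivo libraries, a log2 difference of -1.60 (SE 0.273, adjusted p = 0.0011). In none of these 4 contrasts did the groups overlap, as with 44% of all tested genes that were lower in both cultured libraries of a genotype.

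Among cultured cells, 7 of the 9 granzymes were called higher in CIS-/- than in wild type cells and none was called lower. By the same edgeR test, 25.6% of all tested genes were called in this comparison, of which those called higher made up 11% of all tested genes and those called lower 14.6%. The median log2 difference of the 9 members, CIS-/- minus wild type, was 1.09, against 0.00 over all tested genes. Called and at least 2-fold higher were 5 members, Gzmb, Gzmd, Gzme, Gzmf and Gzmg, a criterion that 1.77% of all tested genes met. The libraries of the 2 genotypes did not overlap for any of the 9: 8 members were higher in both CIS-/- libraries, as were 33.7% of all tested genes, and Gzmk was lower in both, as were 35.1%.

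The largest differences were those of Gzmd, Gzme, Gzmf and Gzmg. Gzmd had 716 and 1543 CPM in CIS-/- in vitro libraries, against 263 and 180 CPM in wild type in vitro libraries, a log2 difference of 2.35 (SE 0.371, edgeR adjusted p = 0.0094). Gzme had 288 and 597 CPM in CIS-/- libraries against 99.6 and 65.2 CPM in wild type libraries, with a log2 difference of 2.42 (SE 0.366, adjusted p = 0.0085). Gzmg had 213 and 480 CPM in CIS-/- libraries against 63.5 and 35.6 CPM in wild type libraries, with a log2 difference of 2.81 (SE 0.433, adjusted p = 0.0089). In all 3 genes CIS-/- replicate 2 was more than 2-fold above CIS-/- replicate 1, and both were above both wild type libraries. Gzmf, the lowest of this block, had 35.3 and 87.9 CPM in CIS-/- libraries against 14.5 and 5.09 CPM in wild type libraries, with a log2 difference of 2.65 (SE 0.542, adjusted p = 0.014).

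Within the block, the ratios of Gzmd, Gzmg and Gzmf to Gzme are given as a description only. Reads shared among these genes leave their split uncertain, as set out below. None of these ratios was tested, and no share over other genes was computed for them. The summed level of Gzmd to Gzmg was 1350 and 2917 RPKM in CIS-/- in vitro libraries against 475 and 308 RPKM in wild type in vitro libraries. Gzmd stood at 2.45 and 2.54 times the RPKM of Gzme in CIS-/- libraries and at 2.60 and 2.72 times in wild type libraries. Gzmg stood at 0.751 and 0.815 times Gzme in CIS-/- libraries and at 0.647 and 0.553 times in wild type libraries. Gzmf stood at 0.124 and 0.149 times Gzme in CIS-/- libraries and at 0.148 and 0.0793 times in wild type libraries. As a percentage of Gzmc, Gzmd reached 3.45 and 6.11 in CIS-/- libraries and 2.02 and 1.19 in wild type libraries. This ratio to Gzmc was not tested either. Of the block only Gzmd was set against Gzmc. As a single-gene measure, 33.7% of all tested genes were higher in both CIS-/- in vitro libraries, which is no background for a ratio.

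The 3 abundant granzymes differed by about 2-fold or less. For Gzmb, with the in vitro values given above, the log2 difference between CIS-/- and wild type cells was 1.09 (SE 0.115, edgeR adjusted p = 0.0030), a 2.12-fold difference. For Gzma it was 0.85 (SE 0.150, adjusted p = 0.0083), and for Gzmc 0.71 (SE 0.178, adjusted p = 0.023). The 2 scarce members did not pass. Gzmk had a log2 difference of -0.60 (95% interval -1.27 to 0.08, adjusted p = 0.17). Gzmm had one of 0.30 (95% interval -0.26 to 0.85, adjusted p = 0.39).

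**Figure D3:**
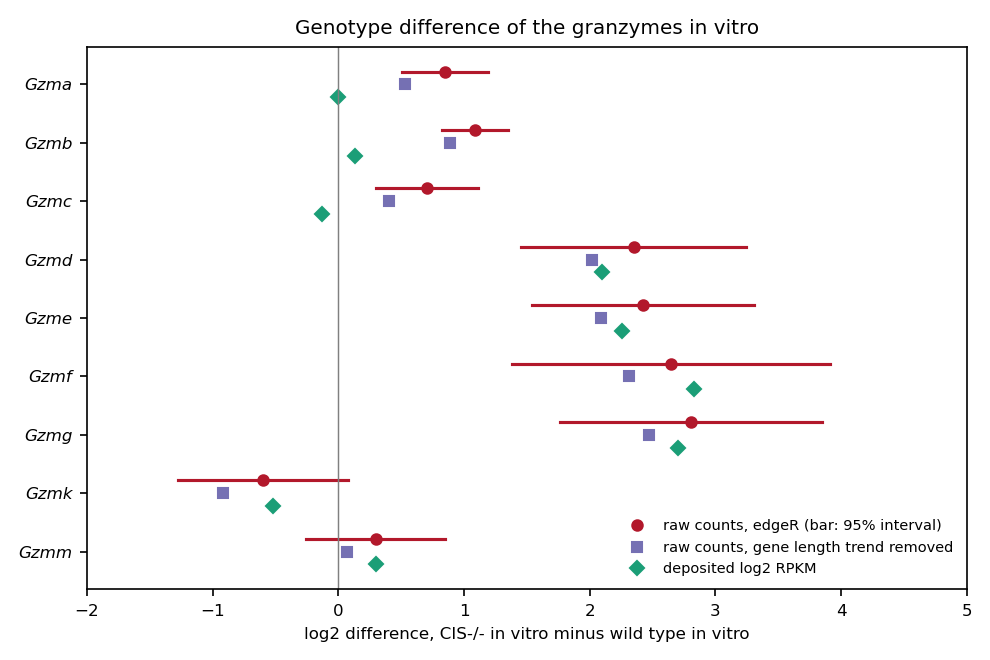
Log2 difference between CIS-/- in vitro and wild type in vitro cells for each granzyme: circles with 95% intervals from edgeR on the raw counts (n = 2 libraries per group), squares from the same counts after removal of the gene length trend, and diamonds from the deposited log2 RPKM values. The 3 values lie close together for Gzmd to Gzmg, at 2.02 and above, whereas the diamonds of Gzma, Gzmb and Gzmc lie between -0.13 and 0.13.

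Single libraries decided some of these calls. Without CIS-/- in vitro replicate 2 the number of members called was 4: Gzma (log2 difference 0.66, adjusted p = 0.054), Gzmc (0.56, adjusted p = 0.14) and Gzmf (1.85, adjusted p = 0.11) no longer passed. Without wild type in vitro replicate 2 it was 3, with Gzma at adjusted p = 0.052, Gzmc at 0.067, Gzmd at 0.054 and Gzmf at 0.059. Without wild type in vitro replicate 1, Gzmc had adjusted p = 0.11. Gzmb, Gzme and Gzmg passed in each of the 8 edgeR fits that left out 1 library. The size of the differences in the block moved by more than 1.5 times between such fits. Without CIS-/- in vitro replicate 2 the log2 difference was 1.69 for Gzmd, 1.81 for Gzme and 2.11 for Gzmg, and without CIS-/- in vitro replicate 1 it was 2.80 for Gzmd, 2.85 for Gzme, 3.16 for Gzmf and 3.27 for Gzmg. Without wild type in vitro replicate 1 it was 2.69 for Gzmd, 2.80 for Gzme, 3.64 for Gzmf and 3.32 for Gzmg, and without wild type in vitro replicate 2 it was 2.10 for Gzmd, 2.15 for Gzme, 2.08 for Gzmf and 2.45 for Gzmg.

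A trend on gene length, T cell markers and Xist stood beside the granzymes between genotypes in vitro. Across all tested genes the log2 difference fell with gene length (Spearman -0.461), and the 2935 genes under 1500 bases had a median of 0.29. Replicate 1 minus replicate 2 had a length correlation of 0.451 in CIS-/- in vitro and 0.0197 in wild type in vitro libraries. Ex vivo this correlation was -0.370 in CIS-/- and -0.110 in wild type libraries. A trend of this size thus also stood between the CIS-/- in vitro libraries, and its source was not tested. The granzymes are short, between 792 and 1418 bases in the deposited lengths. With this trend removed, Gzma stood at 0.53 (adjusted p = 0.012), Gzmb at 0.89 (adjusted p = 0.0026) and Gzmd to Gzmg between 2.02 and 2.47, all called. Gzmc then stood at 0.40 (adjusted p = 0.068), and Gzmk was called lower at -0.92 (adjusted p = 0.049). Of 13 T cell markers, 7 were called higher and none lower, where 11% of all tested genes were called higher, and their sum was 1621 and 1664 CPM in CIS-/- in vitro libraries against 766 and 639 CPM in wild type in vitro libraries. Cd3e, a chain of the T cell receptor complex, had 86.6 and 68.8 CPM in CIS-/- libraries against 9.87 and 3.51 CPM in wild type libraries. T cells can express granzymes, and the part of such transcripts in the granzyme result was not tested. The NK cell markers summed to 5855 and 6767 CPM in CIS-/- in vitro libraries and to 6612 and 5987 CPM in wild type in vitro libraries.

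Scaling by plain library totals in place of trimmed means moved the median of all genes to -0.13 in this comparison and split its calls into 744 higher and 2773 lower, beside 1445 and 1929 in the fit reported here. The 7 granzymes called higher also passed with that scaling, with log2 differences between 0.57 for Gzmc and 2.66 for Gzmg. With the length trend removed the split was 1652 higher and 1320 lower.

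Ex vivo, no granzyme was called between genotypes, where 0.0607% of all tested genes passed. edgeR and DESeq2, which called 0.341% of all tested genes, both called 0 members. In edgeR 844 of all 13184 tested genes had an unadjusted p under 0.05, among them 1 member. That member was Gzmm, with a log2 difference between CIS-/- and wild type cells of 0.41 (95% interval 0.00 to 0.83, adjusted p = 0.77). For Gzma the difference was 0.15 (95% interval -0.19 to 0.49, adjusted p = 0.81), and for Gzmb 0.06 (95% interval -0.20 to 0.32, adjusted p = 0.90). Gzmc stood at -0.08 (95% interval -0.71 to 0.54) and Gzmk at -0.37 (95% interval -0.97 to 0.23). For Gzmd to Gzmg no fold is given, since both ex vivo groups were at or under the floor of 3 counts.

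The difference between the in vitro and the ex vivo genotype effect was tested directly as an interaction. No granzyme passed in edgeR, as with all but 0.137% of tested genes. Gzmb was nearest, with a log2 interaction of 1.03 (SE 0.161, edgeR adjusted p = 0.060), followed by Gzma at 0.70 (SE 0.212, adjusted p = 0.15) and Gzmc at 0.79 (SE 0.326, adjusted p = 0.23). These 3 had unadjusted p under 0.05 in edgeR, as had 2586 of all 13184 tested genes. DESeq2 called Gzmb (adjusted p = 4.8e-08) and Gzma (adjusted p = 0.015), in a comparison where it called 4.49% of tested genes. In edgeR, Gzmb passed without the low-count filter (adjusted p = 0.019) and with the length trend removed (adjusted p = 0.045), but not with the replicate block (adjusted p = 0.11). Its interaction was only 0.09 in limma on the deposited log2 RPKM and in limma-voom with quantile normalization. It ranged from 0.90 to 1.14 in the fits that left out 1 library. Gzmb passed in 5 of 23 settings, the reported one included in the 23. For Gzmd to Gzmg the interaction cannot be estimated from ex vivo groups at 0.

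Of the chromosome 14 members, Gzmd, Gzme, Gzmf and Gzmg are close copies of each other, which limits how well their reads can be told apart. Aligned transcripts of Gzmd, Gzme, Gzmf and Gzmg were 86.4% to 94.8% identical over 6 pairs, with Gzmd and Gzme the closest. Gzmc shared 74.0% to 75.5% with them, and Gzmb shared 68.25% to 76.21% with Gzmc to Gzmg. Of all 50-base runs of the transcript, 78.1% were found in no other gene for Gzmd, 79.4% for Gzme, 80.6% for Gzmf and 80.2% for Gzmg, against 95.9% for Gzmc and 100% for Gzma, Gzmb, Gzmk and Gzmm. How reads shared by several genes were counted is not given in the sources used here. The split among Gzmd, Gzme, Gzmf and Gzmg is therefore uncertain, while the reads of Gzma and Gzmb have no near copy.

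The promoters of Gzmc to Gzmg also resemble each other, and these are the members that were at or near 0 ex vivo and high in culture. In the 250 bases before the start (RefSeq, GRCm38.p6), these 5 promoters were 84.4% to 95.6% identical over 10 pairs, against 57.1% to 65.5% with Gzmb. The windows of Gzmb (chr14:56262335-56262584), Gzmc (chr14:56234658-56234907) and Gzmd (chr14:56132594-56132843), all on the minus strand, show the contrast. They are printed 5′ to 3′ with capitals for the letters of motifs searched on both strands. The windows end at the base before the start listed by RefSeq, which for Gzmc and Gzmd lies inside the longer annotated gene.
Gzmb: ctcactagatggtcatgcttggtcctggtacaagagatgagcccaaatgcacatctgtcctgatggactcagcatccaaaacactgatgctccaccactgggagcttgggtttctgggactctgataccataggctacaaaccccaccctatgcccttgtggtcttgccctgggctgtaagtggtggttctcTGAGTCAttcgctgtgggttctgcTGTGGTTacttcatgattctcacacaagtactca
Gzmc: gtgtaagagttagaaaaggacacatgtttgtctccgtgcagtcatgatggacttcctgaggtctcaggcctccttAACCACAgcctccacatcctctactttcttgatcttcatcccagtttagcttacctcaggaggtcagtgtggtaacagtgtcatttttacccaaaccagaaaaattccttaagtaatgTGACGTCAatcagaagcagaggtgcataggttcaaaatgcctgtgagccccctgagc
Gzmd: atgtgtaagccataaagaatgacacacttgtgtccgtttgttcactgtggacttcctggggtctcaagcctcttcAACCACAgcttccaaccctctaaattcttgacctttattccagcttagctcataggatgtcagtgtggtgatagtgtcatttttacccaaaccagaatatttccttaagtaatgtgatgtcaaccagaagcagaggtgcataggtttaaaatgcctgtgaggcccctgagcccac

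RUNX factors, which read AACCACA, are regulators of cytotoxic lymphocyte genes, and these letters stood in the windows of 7 of the 9 genes: Gzma, Gzmb, Gzmc, Gzmd, Gzme, Gzmf and Gzmg. They stood in 4.4% of all 32841 promoter windows. Since the windows of Gzmc to Gzmg are 84.4% to 95.6% identical, their matches are copies and not independent of each other. The AP-1 letters TGANTCA stood in Gzmb alone among the 9, and in 6.75% of all windows. The T-box letters AGGTGT stood in Gzma and Gzmk, and in 11.8% of all windows. The STAT letters TTCNNNGAA stood in 1 of the 2 windows of Gzmm, and in 7.02% of all windows. No motif match overlapped another in the printed windows, and a match is a description of letters, not of binding.

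The 8 letters TGACGTCA of the cyclic AMP response element (CRE), which ATF and CREB factors read, stood in Gzmc, Gzmf and Gzmg, and in 1.55% of all windows. These matches too lie in near copies and are not independent. At the aligned place, Gzmd and Gzme each had 1 of the 8 letters changed, C4T in Gzmd and G5A in Gzme. Positions are counted from 1 at the first base of the CRE, with the CRE letter first. Some bases outside the 8 letters differed between these genes as well. The 52 bases around that place are shown for Gzmc (chr14:56234679-56234730), Gzmd (chr14:56132619-56132670), Gzme (chr14:56120652-56120703), Gzmf (chr14:56211454-56211505) and Gzmg (chr14:56159621-56159672), minus strand, 5′ to 3′, with the 8 positions in capitals.
Gzmc: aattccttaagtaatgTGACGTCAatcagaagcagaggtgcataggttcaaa
Gzmd: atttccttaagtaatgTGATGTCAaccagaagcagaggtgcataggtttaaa
Gzme: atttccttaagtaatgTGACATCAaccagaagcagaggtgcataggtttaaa
Gzmf: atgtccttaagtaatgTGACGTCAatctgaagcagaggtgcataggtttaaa
Gzmg: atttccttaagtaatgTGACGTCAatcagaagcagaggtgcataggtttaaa

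The levels of these genes are set beside the CRE letters as a description, and a link between them was not tested. The uncertain split of reads among Gzmd to Gzmg applies here too. Gzmd and Gzme, each with a changed letter, had 1206 and 479 RPKM in CIS-/- in vitro cells, against 381 and 67.7 RPKM for Gzmg and Gzmf and 24558 RPKM for Gzmc, all with the intact letters. In wild type in vitro cells Gzmd and Gzme had 237 and 89.3 RPKM, against 54.5, 10.8 and 15020 RPKM for Gzmg, Gzmf and Gzmc.

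The partners of granzymes in the granule were followed in a list of 28 genes, 27 of them tested. Between genotypes in vitro 8 were called higher and 2 lower, where 11% of all tested genes were higher and 14.6% lower. The median log2 difference of the list was 0.12, against 0.00 over all tested genes. Prf1, which encodes perforin, had 1290 and 1181 CPM in CIS-/- in vitro libraries against 857 and 749 CPM in wild type in vitro libraries, with a log2 difference of 0.62 (SE 0.114, edgeR adjusted p = 0.0093). Srgn, whose proteoglycan packs granzymes in the granule, had 1767 and 2029 CPM in CIS-/- libraries against 1309 and 1305 CPM in wild type libraries, a log2 difference of 0.54 (SE 0.109, adjusted p = 0.012). Serpinb9, the inhibitor of granzyme B, had 1277 and 1351 CPM in CIS-/- libraries against 632 and 561 CPM in wild type libraries, a log2 difference of 1.14 (SE 0.106, adjusted p = 0.0020). Its relatives were also called higher, Serpinb9b by 2.21, Serpinb6b by 0.86 and Serpinb6a by 0.81 on the log2 scale, although reads of such paralogs may be shared. Nkg7, a granule membrane protein, rose by 0.58. Lyst and Ap3b1, which act in the traffic of lysosomal granules, fell by 1.06 and 0.50.

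In culture 12 genes of the list were called higher and 12 lower in CIS-/- cells, where 34.8% of all tested genes were higher and 37.5% lower. In wild type cells 11 were called higher and 13 lower, where 32.1% of all tested genes were higher and 31.6% lower. Prf1 moved the other way from Gzmb. Its log2 difference, in vitro minus ex vivo, was -0.997 in CIS-/- cells (SE 0.115, edgeR adjusted p = 8.1e-05) and -1.55 in wild type cells (SE 0.116, adjusted p = 1.2e-05). Prf1 had 2300.5 and 2631 CPM in CIS-/- ex vivo libraries and 2332 and 2374 CPM in wild type ex vivo libraries. Srgn was higher in culture, by 1.63 in CIS-/- cells and 1.35 in wild type cells. Ex vivo no gene of the list was called between genotypes.

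Of 20 transcription factors and signalling genes known to act on granzyme genes or on effector lymphocytes, 1 was called higher and 8 lower in CIS-/- in vitro than in wild type in vitro cells, with a median log2 difference of -0.32. Of all tested genes 11% were called higher and 14.6% lower, with a median of 0.00. Over all tested genes the log2 difference fell with gene length here (Spearman -0.461). Values of this list and of the granule list with that trend removed are not given here. Eomes, a T-box factor of NK cell maturation, had 124 and 109 CPM in CIS-/- in vitro libraries against 183 and 166 CPM in wild type in vitro libraries, a log2 difference of -0.58 (SE 0.109, edgeR adjusted p = 0.0096). Stat4, which carries the interleukin-12 signal, stood at -0.68 (adjusted p = 0.011), Ets1 at -0.57 (adjusted p = 0.013) and Tcf7 at -0.75 (adjusted p = 0.037). Bach2, a repressor of effector genes, stood at -1.16 (adjusted p = 0.0083) and Zeb2 at -1.13 (adjusted p = 0.013). The gene called higher was Ikzf2, encoding Helios, at 1.07 (adjusted p = 0.013). Tbx21, encoding T-bet, was lower in culture, with 149 and 165 CPM in cultured wild type libraries against 765 and 765 CPM in wild type ex vivo libraries, while Irf4 was higher, with 22.1 and 16.5 CPM against 3.37 and 3.75 CPM.

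Beside Gzmb on chromosome 14 lie further granule proteases, known mainly from mast cells and basophils. Of 9 listed, 3 were tested, and 1 was called in vitro between genotypes, where 25.6% of all tested genes were called. This was Mcpt8, with 29.9 and 49.4 CPM in CIS-/- in vitro libraries against 12.4 and 15.4 CPM in wild type in vitro libraries, a log2 difference of 1.51 (SE 0.277, edgeR adjusted p = 0.0092). Mcpt8 marks basophils. The list of 10 basophil and mast cell markers summed to 473 and 436 CPM in CIS-/- in vitro libraries and to 776 and 992 CPM in wild type in vitro libraries. Of this list Ms4a2, Fcer1a, Tpsb2, Tpsab1 and Prss34 were at 0 in all 4 in vitro libraries, so the sums came from the other markers. Tpsb2 and Tpsab1 were at 0 in both ex vivo groups as well. The part of basophils and mast cells in the Mcpt8 result was not tested. Cma1, encoding mast cell chymase, went the other way in culture, with 0.626 and 0.316 CPM in cultured wild type libraries against 387 and 381 CPM in wild type ex vivo libraries.

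The deposited log2 RPKM files give another picture for the 3 abundant granzymes. Their sorted values, with gene length taken out, were nearly the same in all 8 files, with a median range of 0.00222 over 12372 genes, against 0.267 for log2 CPM from the counts. The 3 highest values were equal in all 8 files. Since Gzma, Gzmb and Gzmc held those 3 ranks in every in vitro library, their deposited values could differ only by exchanging ranks. The deposited difference between CIS-/- and wild type in vitro cells was 0.00 for Gzma, 0.13 for Gzmb and -0.13 for Gzmc, against 0.85, 1.09 and 0.71 from the counts. For Gzmd to Gzmg the deposited differences were 2.10, 2.26, 2.83 and 2.70, against 2.35, 2.42, 2.65 and 2.81 from the counts. Quantile normalization of the raw counts, added after this was seen, gave 0.00, 0.13 and -0.13 for Gzma, Gzmb and Gzmc, none of them called by limma-voom, and called Gzmd to Gzmg. The deposited values had 25% of genes called in this comparison and the quantile-normalized counts 27.3%.

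**Figure D4:**
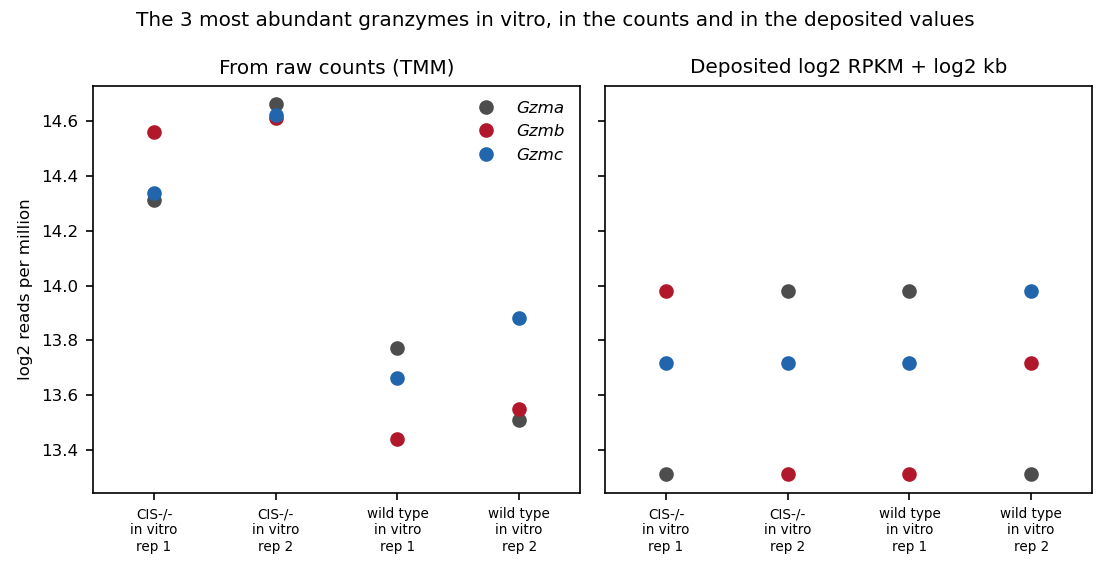
Log2 CPM of Gzma, Gzmb and Gzmc in the 4 in vitro libraries, from the raw counts (left) and from the deposited log2 RPKM with gene length taken out (right), with 1 point per gene and library. On the left every CIS-/- point lies at 14.31 or above and every wild type point at 13.88 or below; on the right all libraries share the values 13.98, 13.72 and 13.31.

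The genes whose pattern over the 8 libraries was nearest to each granzyme were found by the root mean square difference of centred log2 CPM (prior count 2) among 9708 candidates. Nearest to Gzmb were Lars2 (0.194), Xcl1 (0.232), which encodes a chemokine, and Dhrs13 (0.233). Nearest to Gzma were Cox16 (0.0865), Prdx5 (0.0902) and Tmem208 (0.0992). Ccl1, another chemokine gene, and Dsc2 were among the 3 nearest to Gzmc, Gzmd, Gzme and Gzmg, at distances from 0.692 to 1.43, which is far less close. Nearest to Gzmf was Spp1 (0.656), nearest to Gzmk Zfp874b (0.221) and nearest to Gzmm Cd2 (0.224). The 8 points of each comparison are 4 groups of 2 libraries, so likeness is a description only.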

How the data were processed

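RNA from NK cells was measured in 8 libraries. Per the submitters' processing notes, the authors used Subread, featureCounts and limma with GRCm38/mm10; versions, strand setting and the handling of reads shared by paralogs or overlapping genes are not given in the sources used here. All comparisons rest on the deposited raw read counts of 27179 Entrez genes, 565 of them without a symbol. Log2 RPKM values of 12372 genes, deposited in 1 file per library, served 1 alternative and the comparison of scales.

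The tests used edgeR 4.0.16 under R 4.3.3: filterByExpr (minimum count 10, minimum total 15), trimmed mean of M values scaling, 1 mean per group over all 8 libraries (4 residual degrees of freedom) and quasi-likelihood F tests for 5 comparisons, adjusted by Benjamini-Hochberg over 13184 genes at 0.05. Standard errors are the absolute log2 difference over the square root of F. CPM and RPKM use the trimmed-mean library sizes and deposited lengths. Library totals of 21.5 to 28.1 M counts put counting error highest, relative to the value, for Gzmk, Gzmm and ex vivo Gzmc among the members with reads in every library. Where a group was at 0, folds are bounds from 3 counts over the group. Alternatives were other scalings and filters, DESeq2 1.42.0, limma 3.58.1 (voom, and on log2 RPKM), a replicate block, robust spread, fits of the compared samples alone, a length trend removed by a spline with 4 degrees of freedom, leaving out X- and Y-linked genes and leaving out each library. The fits were tested on simulated data.

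Motifs were searched in the RefSeq promoter table, and 50-base runs in GENCODE transcripts of the same build. All 9 granzymes were named. From the granule, regulator and chromosome 14 protease lists, up to 6 called genes per direction between genotypes in vitro and up to 3 per direction for culture in wild type cells were eligible, at a mean of 5 CPM or more. Prf1, Srgn and Cish were always eligible, and Xist, Ncr1, Cd3e and Mcpt8 in single libraries were checks. Members and lists were chosen with earlier results of these data known. Between the 2 libraries of a group, chi-square over its degrees of freedom ran from 5.96 to 34.2, above counting error, so no library was taken for a second deposit of another; whether they are separate mice or cultures is not given. The 2 windows of Gzmm come from 2 listed starts.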

Additional observations from a re-analysis of the deposited data

Results flagged for a closer look

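Gzmn, a further gene of the chromosome 14 block that is not among the 9 members, had reads in cultured cells although it was below the filter and entered no test. It had 22 counts over the CIS-/- in vitro libraries (4 and 18) and 2 counts over the wild type in vitro libraries (2 and 0), with 0 counts in all 4 ex vivo libraries. The ratio of CIS-/- in vitro to wild type in vitro was 12.4, with a 95% counting interval from 3.04 to 108. It stood out as signal in a gene outside the comparisons, above the level of 0 ex vivo. Gzmd, Gzme and Gzmg share 50-base runs with Gzmn, and the part of shared reads in these counts was not tested.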

How the results depend on the processing

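In vitro, limma on the deposited log2 RPKM and limma-voom with quantile normalization (added after the data were seen) each called 4 granzymes between genotypes against 7, with Gzmc at -0.13 under both. Both settings gave Gzmc an interaction of -0.08 and -0.07, and Gzma a culture difference of -0.07 in either genotype; with the length trend removed, with or without the replicate block, Gzma stood at -0.14 in wild type cells. Called granzymes for the interaction were 0, against 1 without the low-count filter or with the length trend removed and 2 with DESeq2. With the length trend removed, 7 granzymes were called in vitro, but Gzmk took the place of Gzmc. Ex vivo, Gzmb stood at -0.01 with the length trend removed. In the deposited values Gzma made up 95.2% of the family in CIS-/- ex vivo and 95.3% in wild type ex vivo cells.

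Leaving out 1 library gave 3 to 7 called granzymes in vitro, 0 to 1 for the interaction, 8 to 9 for culture in wild type cells, 9 for culture in CIS-/- cells and 0 ex vivo. The log2 differences then ranged from -0.05 to 0.19 for Gzmb and from -0.35 to 0.26 for Gzmc ex vivo, and from -0.51 to 0.12 for Gzmk and from -0.41 to 0.30 for Gzmm in the interaction. Single fits gave Gzmc 0.15, Gzmk 0.04 and 0.0028 and Gzmm 0.08. In such fits a lone library is taken to vary as the other groups do. The cause of these changes was not tested.

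Replicate numbers did not pair the libraries (correlations of deviations from -0.232 to 0.146, under 0.1 in all pairs but wild type with CIS-/- ex vivo). The replicate block left 7 granzymes called in vitro, took Gzma in wild type culture to adjusted p = 0.064, and took all calls in vitro from 3374 to 2527 and for the interaction from 18 to 6. Swapping the numbers of the CIS-/- in vitro libraries within such a block gave 9709 calls for culture in CIS-/- cells, against 9257 with the block as numbered and 9539 without a block.

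Over all genes, ex vivo calls were 8, against 45 with DESeq2, 23 without the filter, 15 with the length trend removed, 16 with block and length, 5 in the compared samples alone and 3 to 41 without 1 library. Interaction calls were 18, against 592, 75, 153 and 45 under the first 4 of these, 1 with deposited values or without X- and Y-linked genes, and 6 to 378 without 1 library. In vitro calls ran from 500 to 4296 without 1 library, against 3374. The analysis of the compared samples alone was not run for the interaction, which uses all libraries.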
